A study of Homo sapiens with 6 samples.

Results

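The aminoacyl-tRNA synthetases studied here are 36 genes, 20 for cytosolic and 16 for mitochondrial enzymes, out of 58051 genes in the expression table. They were chosen by name: Ensembl identifiers were matched to gene symbols, older names such as AARS for AARS1 and TARSL2 for TARS3 included, and all 36 were found. RNA was sequenced in 6 libraries of cells labelled NTera-2 (NT2), an embryonal carcinoma line. The titles put 3 libraries in a piR-36249 mimic group and 3 in a scramble control group; piRNAs are small RNAs best known from germ cells. The genotype label and the design text speak of knockdown of piR-36249, whereas titles and treatment label name mimics; groups follow the titles here, and differences are mimic minus scramble. Both groups carry the same cell line label. Separate cultures are not stated for the libraries, so a p-value reflects the spread among these 6 samples alone, and that spread may be technical.

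Each synthetase joins an amino acid to its tRNA, and so sets the genetic code at every codon. Most cytosolic and mitochondrial enzymes are encoded by separate nuclear genes, except that GARS1 and KARS1 serve both compartments. Several cytosolic enzymes sit in a multisynthetase complex held together by the scaffold proteins AIMP1, AIMP2 and EEF1E1. When uncharged tRNA builds up, the kinase GCN2 (gene EIF2AK4) triggers the integrated stress response, whose transcription factor ATF4 is known to induce many cytosolic synthetase genes in mammalian cells. WARS1, the tryptophan enzyme, is known for its induction by interferon-gamma.

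The synthetase promoters carry letters that bear on both pathways. RefSeq promoter windows on GRCh38.p14, from 250 bases before to 50 bases after a transcript start, were at hand for 30 of the 36 genes; AARS2, LARS1, TARS3, VARS1, VARS2 and YARS1 had none. The element bound by ATF4 with C/EBP partners was searched as TGATGNAA on both strands, where its reverse complement reads TTNCATCA. It was found in 8 of 30 synthetase genes (26.7%) against 4.46% of 27305 genes in the promoter table. The stricter form TGATGCAA, a subset of it, was found in 6 of 30 (20%) against 1.08% of genes. The matches are shown 5′ to 3′ on the gene's strand with 10 bases on either side, because 6 of these 8 genes were later called lower with mimic; capitals mark the match.
AARS1 (chr16:70289676-70289703, minus strand): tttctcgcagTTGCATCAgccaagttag
CARS1 (chr11:3057408-3057435, minus strand): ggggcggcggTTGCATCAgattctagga
IARS1 (chr9:92293693-92293720, minus strand): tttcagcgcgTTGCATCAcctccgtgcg
MARS1 (chr12:57488054-57488081, plus strand): ccggttccggTTGCATCAgcgagggatt
GARS1 (chr7:30594835-30594862, plus strand): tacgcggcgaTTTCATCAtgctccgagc
YARS2 (chr12:32756077-32756104, minus strand): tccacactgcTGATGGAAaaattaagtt
TARS1 (chr5:33440957-33440984, plus strand): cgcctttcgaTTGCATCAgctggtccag
NARS1 (chr18:57621805-57621832, minus strand): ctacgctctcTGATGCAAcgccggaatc

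In CARS1, IARS1, MARS1, TARS1 and NARS1 the match lay next to the transcript start, with its first base at -2, -13, -4, 3 and 15, where the first transcribed base is 1. In AARS1 it lay farther upstream, at -187, as did the match of YARS2 at -197.

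For the interferon side, the interferon-stimulated response element was searched as GAAA, any 2 bases and GAAA on both strands, and the gamma-activated site as TTCNNNGAA, which is its own reverse complement. WARS1 held both in the window of 1 of its starts, at -55 and -142. The first motif was in 2 of 30 synthetase genes, WARS1 and EARS2, and in 4.38% of all genes. The second was in 5 of 30 (CARS1, PARS2, TARS1, WARS1 and WARS2) and in 9.38% of all genes. No match of 1 motif overlapped a match of another. A match describes letters, not a site in use. The 2 matches of WARS1 are shown because this gene was singled out as the interferon-linked synthetase.
WARS1, interferon-stimulated response element (chr14:100375383-100375412, minus strand): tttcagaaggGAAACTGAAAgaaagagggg
WARS1, gamma-activated site (chr14:100375471-100375499, minus strand): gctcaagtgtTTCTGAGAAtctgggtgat

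Expression was given as FPKM, reads scaled to gene length and library depth. Levels of different genes can be compared per length only as far as the length used fits the transcripts made. Depth, recovered from the steps of the values, was between 48.0 and 62.7 M reads per library. The cell line label was checked against marker lists. Of 10 embryonal carcinoma genes, 2 (DNMT3B and PODXL) were above 1 FPKM in all libraries and 5 (NANOG, SOX2, TDGF1, SALL4 and L1TD1) were listed at 0 in all. POU5F1 reached 0.0706 FPKM at most. Of 10 endothelial genes 7 were above 1 FPKM in all libraries, CDH5 between 86.4 and 127.5 FPKM. The other endothelial genes, VWF, KDR and CLDN5, reached 0.525, 0.0400 and 0.149 FPKM at most. On these lists the embryonal carcinoma label was not borne out, and the identity of the cells was not tested further. A value of 0 here need not mean a silent gene, since EEF1G, an elongation factor gene that every cell uses, was also listed at 0. The summed endothelial markers lay between 563.3 and 617.4 FPKM with mimic and between 455.4 and 489.2 FPKM with scramble. The summed embryonal carcinoma markers, mostly PODXL, were also higher with mimic. They lay between 312.8 and 354.5 FPKM with mimic and between 250.1 and 294.7 FPKM with scramble. The part of either list in the differences below was not tested. In bulk RNA, fewer cells of a type and less RNA per cell cannot be told apart.

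Synthetase levels spanned a wide range. Averaged over the 6 libraries, the cytosolic genes lay between 1.03 FPKM (TARS3) and 103.0 FPKM (FARSA), with a median of 33.3 FPKM. The mitochondrial genes lay between 0.148 FPKM (SARS2) and 42.8 FPKM (IARS2), with a median of 7.57 FPKM. Among 18 pairings of a cytosolic with a mitochondrial gene for the same amino acid, the cytosolic gene had the higher level in 13. The exceptions were HARS1, IARS1, LARS1 and YARS1, which lay at 0.805 to 0.865 of the level of their mitochondrial partner, and TARS3. Such rankings depend on the length used, here that of all annotated exons, 8212 bases for YARS1 and 2152 for YARS2. In scramble replicate 1 the recovered reads ran the other way for each exception but TARS3. They were 18134 for YARS1 and 5756 for YARS2, and 8316 for LARS1 and 7618 for LARS2. TARS3 is a paralogue of TARS1, which itself averaged 24.3 FPKM.

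With mimic, 15 of 35 tested synthetase genes passed the test, 11 lower and 4 higher. The test was limma on log2(FPKM + 1) over the 12912 genes averaging 0.5 FPKM or more, with adjusted p-values under 0.05 called; on this scale fold changes of low genes are understated. Among all tested genes 35.5% were called, 18.7% higher and 16.8% lower with mimic. The called share of the synthetases was 42.9%, and their median log2 difference was -0.10, against 0.0025 over all tested genes. In 25 of the 36 genes the FPKM of the groups did not overlap, 21 lower and 4 higher with mimic. Among all tested genes 49.2% did not overlap, 26.0% higher and 23.2% lower with mimic. The authors' deposited table of 401 genes holds only absolute log2 fold changes from 1.0005 upwards, larger than any synthetase difference here, so the absence of all 36 genes from it follows from that limit. Without 1 of the libraries, between 10 (without mimic replicate 3 or scramble replicate 1) and 14 synthetase genes were called.

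**Figure D1:**
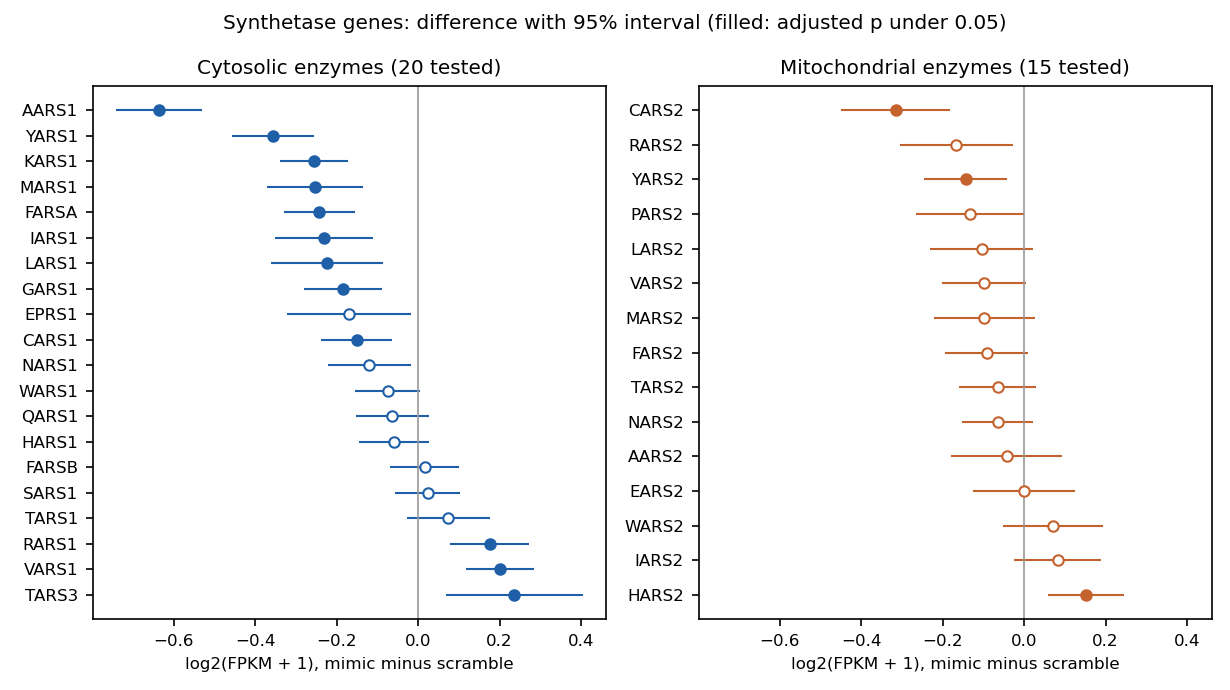
Difference of each tested synthetase gene, mimic minus scramble, on the log2(FPKM + 1) scale, with cytosolic enzymes on the left and mitochondrial enzymes on the right. Points are estimates, bars their 95% intervals and filled points passed the test; AARS1 at -0.64 lies apart from the other genes.

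The cytosolic enzymes held most of the calls. Of 20 tested, 9 fell, 3 rose and 8 did not pass the test, with a median log2 difference of -0.14. Of the 16 mitochondrial genes 15 were tested, of which 2 fell, 1 rose and 12 did not pass, with a median of -0.09. The called shares were 60% for cytosolic and 20% for mitochondrial genes, against 35.5% of all tested genes. Among all tested genes 16.8% were called lower and 18.7% higher. The summed level of the cytosolic genes was 720.9 ± 9.13 FPKM with mimic and 820.3 ± 7.36 FPKM with scramble (SD, n = 3 each). Without AARS1 these sums were 652.6 ± 5.77 FPKM with mimic and 713.7 ± 4.87 FPKM with scramble. For the mitochondrial genes they were 194.7 ± 2.21 FPKM with mimic and 200.5 ± 2.15 FPKM with scramble. The difference between the 2 compartments was not tested. Mitochondrial genes have lower levels, and the number of mitochondrial calls was 1 without mimic replicate 2 or scramble replicate 1. The number of cytosolic calls was 8 without mimic replicate 3, against 12 with all libraries.

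AARS1, the alanine enzyme (ENSG00000090861, chromosome 16, 70252295 to 70289543, minus strand), fell most. It had 65.7, 72.1 and 66.9 FPKM in mimic replicates 1 to 3, against 105.9, 109.5 and 104.3 FPKM in the scramble replicates. Every mimic library lay far below every scramble library, at 0.640 of the scramble mean. The log2 difference was -0.64 (SE 0.046, limma adjusted p = 6.6e-05), and it stayed between -0.68 and -0.61 in all 18 alternatives. The transcript start of DDX19B, an RNA helicase gene on the other strand, lies 120 bases from that of AARS1, and DDX19B also fell (log2 -0.29, limma adjusted p = 0.0067). Of other genes that start beside a synthetase on the other strand, TERF2IP beside KARS1 (log2 -0.02) and ING1 beside CARS2 (-0.16, limma adjusted p = 0.199) did not pass. LYRM4 beside FARS2 (-0.03) and WDR25 beside WARS1 (-0.09) did not pass either, like the synthetases they adjoin. UBFD1, beside the uncalled EARS2, rose (0.21, 0.014).

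YARS1, the cytosolic tyrosine enzyme (chromosome 1), also fell. It had 27.0, 29.04 and 28.3 FPKM with mimic, against 35.2, 37.5 and 36.03 FPKM with scramble. The groups did not overlap, and the log2 difference was -0.36 (SE 0.043, limma adjusted p = 0.00072), with a mimic level at 0.775 of the scramble mean. S100PBP, whose exons overlap 4.82% of the YARS1 exon length on the other strand, rose (log2 0.22, limma adjusted p = 0.019). Its level was 3.64 FPKM with mimic and 2.97 FPKM with scramble.

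CARS2, the mitochondrial cysteine enzyme (chromosome 13), was the largest fall among the mitochondrial genes. It had 2.52, 2.44 and 2.60 FPKM with mimic, against 3.20, 3.33 and 3.64 FPKM with scramble. All mimic libraries lay below all scramble libraries, and the log2 difference was -0.32 (SE 0.058, limma adjusted p = 0.0045). Its mimic level was 0.745 of the scramble mean, a smaller ratio than that of YARS1, since the added 1 FPKM shrinks the log2 difference of this low gene. Its cytosolic partner CARS1 fell less, to 11.0 ± 0.148 FPKM with mimic, against 12.3 ± 0.161 FPKM with scramble (SD, n = 3 each; log2 -0.15, limma adjusted p = 0.017). The CARS1 call was lost when mimic replicate 3, scramble replicate 1 or scramble replicate 2 was left out (limma adjusted p = 0.061, 0.062 and 0.057), and on the TPM scale (0.055). Whether the cysteine enzymes differ in response was not tested.

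KARS1, the lysine enzyme of cytosol and mitochondria, had 56.4, 56.1 and 57.5 FPKM with mimic, against 69.2, 65.9 and 68.4 FPKM with scramble. These groups were well apart, with a log2 difference of -0.26 (SE 0.036, limma adjusted p = 0.0014). FARSA, the catalytic alpha subunit of the cytosolic phenylalanine enzyme, had 95.6, 91.4 and 95.7 FPKM with mimic, against 110.0, 111.0 and 114.1 FPKM with scramble (log2 -0.24, SE 0.037, limma adjusted p = 0.0021). For the beta subunit FARSB the groups overlapped, between 17.9 and 18.4 FPKM with mimic and between 17.7 and 18.3 FPKM with scramble, and it did not pass the test (log2 0.02, 95% interval -0.07 to 0.10). The subunits form a single enzyme, and the difference between them was not tested.

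MARS1, the cytosolic methionine enzyme, had 48.4, 54.1 and 52.2 FPKM with mimic, against 60.3, 64.2 and 60.3 FPKM with scramble. The groups did not overlap (log2 -0.25, SE 0.051, limma adjusted p = 0.0068). Exons of other genes cover 13.3% of its exon length, and one of these genes, DDIT3 on the opposite strand, also fell (log2 -0.35, limma adjusted p = 0.037). The DDIT3 call was lost in 7 of 18 alternatives (highest adjusted p 0.139), among them every left-out library except mimic replicate 1. DDIT3, a transcription factor of the stress response, had 4.58 FPKM with mimic and 6.08 FPKM with scramble; the use of strand in counting is not given in the sources used here, so reads of the shared bases cannot be assigned. GARS1, the glycine enzyme, fell to 0.878 of its scramble level (log2 -0.19, limma adjusted p = 0.011).

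**Figure D2:**
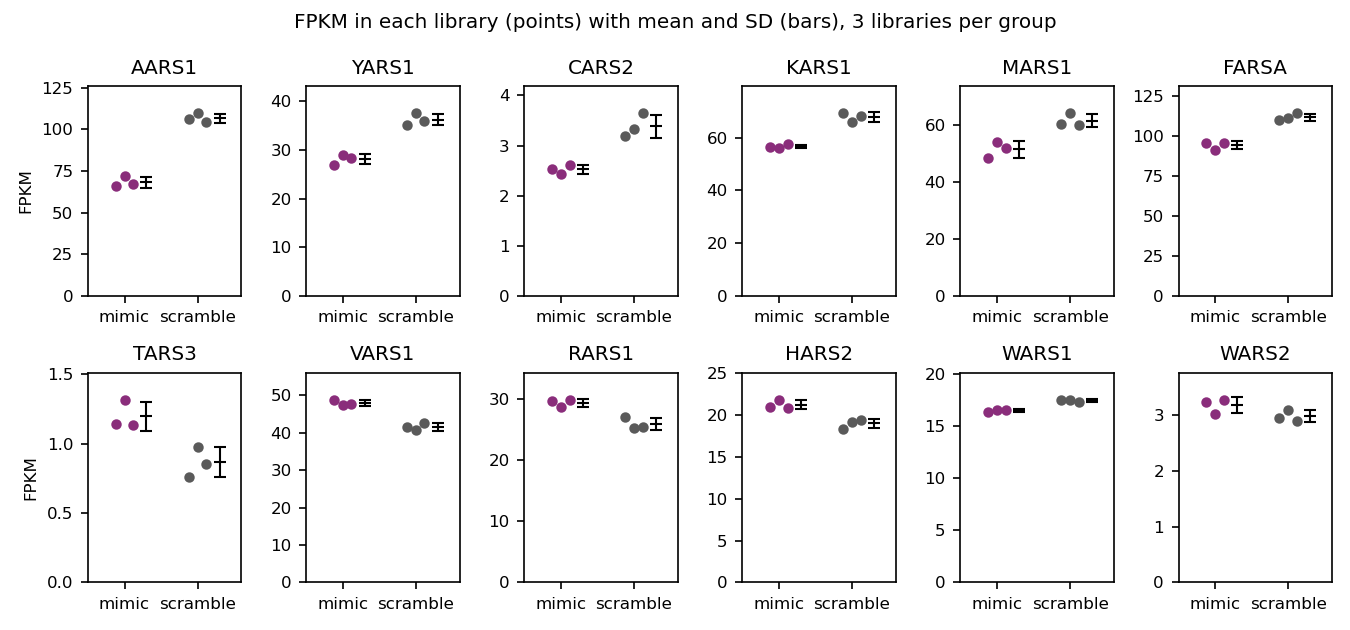
FPKM in each library for 12 synthetase genes, mimic on the left and scramble on the right of each panel, with mean and SD beside the 3 points; axes start at 0. The 6 falling genes of the top row and the 4 rising genes of the bottom row do not overlap between groups, and WARS1 differs by under 1 FPKM.

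The enzymes of the multisynthetase complex fell more often than they rose. Of 7 tested enzymes, KARS1, MARS1, IARS1 (for isoleucine; log2 -0.23, limma adjusted p = 0.011) and LARS1 (for leucine; log2 -0.22, limma adjusted p = 0.021) fell. RARS1, for arginine, rose, and EPRS1, for glutamate and proline, and QARS1, for glutamine, did not pass (log2 -0.17 and -0.06). Of the 7 enzymes 71.4% were called, against 35.5% of all tested genes. The median of the 7 was -0.22, against -0.07 for the 13 cytosolic enzymes outside the complex, a difference that was not tested. Of the scaffolds, AIMP2 rose (log2 0.19, limma adjusted p = 0.038), EEF1E1 fell (log2 -0.24, 0.047) and AIMP1 had a log2 difference of -0.18 (0.069). These calls were unsteady: AIMP2 missed the threshold in 7 of 18 alternatives, among them those leaving out mimic replicate 1, mimic replicate 3, scramble replicate 1 and scramble replicate 2 (highest adjusted p 0.123 over all alternatives). EEF1E1 missed it in 10 of 17, among them every left-out library except mimic replicate 1 (highest 0.145). The LARS1 call did not hold when mimic replicate 1, mimic replicate 3, scramble replicate 1 or scramble replicate 2 was dropped (limma adjusted p = 0.058, 0.074, 0.073 and 0.069), while EPRS1 passed with the replicate number as a block (0.019) and with voom on recovered reads (0.045).

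VARS1, the cytosolic valine enzyme, which binds elongation factor subunits, rose. It had 48.8, 47.4 and 47.8 FPKM with mimic, against 41.5, 40.6 and 42.7 FPKM with scramble. The groups were clearly apart, and the log2 difference was 0.20 (SE 0.036, limma adjusted p = 0.0043). RARS1 had 29.7, 28.7 and 29.9 FPKM with mimic, against 27.1, 25.3 and 25.5 FPKM with scramble (log2 0.18, SE 0.042, limma adjusted p = 0.014). Its groups did not overlap, though its call was lost without mimic replicate 3 (0.054) or scramble replicate 2 (0.050).

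TARS3, the low-level threonine enzyme, had 1.14, 1.32 and 1.14 FPKM with mimic, against 0.761, 0.979 and 0.856 FPKM with scramble. The groups did not overlap, and between 210 and 326 recovered reads per library lie behind these values. Its level was 1.38 times that of scramble (log2 0.24, SE 0.072, limma adjusted p = 0.037), a call that held without scramble replicate 2 and was lost when any other library was left out (highest adjusted p 0.121). TARS1, the main threonine enzyme, did not pass (log2 0.07, 95% interval -0.03 to 0.18).

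HARS2, the mitochondrial histidine enzyme, was the 1 mitochondrial gene that rose. It had 21.0, 21.8 and 20.8 FPKM with mimic, against 18.4, 19.2 and 19.4 FPKM with scramble (log2 0.15, SE 0.040, limma adjusted p = 0.022). The groups did not overlap, but the call was lost without mimic replicate 2 or scramble replicate 1 or 2 (0.064, 0.087 and 0.051). HARS1 and HARS2 are a head-to-head pair on chromosome 5 whose annotated 5′ ends overlap. HARS1 lay between 16.7 and 17.4 FPKM with mimic, against 17.6 to 18.0 FPKM with scramble, and did not pass (log2 -0.06, 95% interval -0.14 to 0.03). Exons of other genes cover 15.8% of the HARS2 exon length and 8.38% of that of HARS1. How reads of shared bases were counted is not given in the sources used here, and their part in these values was not tested.

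WARS1 (ENSG00000140105, chromosome 14, 100333788 to 100376805, minus strand) did not pass the test. It had 16.4, 16.6 and 16.6 FPKM with mimic, against 17.5, 17.5 and 17.3 FPKM with scramble. The replicates were tight and the groups did not overlap, with mimic the lower one. The log2 difference was -0.07 (SE 0.035, 95% interval -0.16 to 0.01, limma adjusted p = 0.133). In an exact two-sided permutation test p was 0.1, the smallest that 3 against 3 libraries allow. The adjusted p lay between 0.093 and 0.345 over the 18 alternatives. Opposite-strand exons cover 10.6% of the WARS1 exon length. WARS2, its mitochondrial partner, had 3.24, 3.01 and 3.27 FPKM with mimic, against 2.93, 3.09 and 2.89 FPKM with scramble, which overlapped (log2 0.07, limma adjusted p = 0.336).

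WARS1 stood beside a list of 21 interferon-gamma response genes, of which 15 could be tested. Of these 8 rose, 0 fell and 7 did not pass, with a median log2 difference of 0.21, where 18.7% of all tested genes rose. JAK1, a kinase of the receptor, had 97.4 ± 2.96 FPKM with mimic and 65.2 ± 3.96 FPKM with scramble (SD, n = 3 each; log2 0.57, limma adjusted p = 0.00019). GBP4, a GTPase of the guanylate-binding family (log2 0.57, limma adjusted p = 0.00082), NLRC5, an activator of MHC class I genes (0.37, 0.0024), and IFNGR2, a receptor chain (0.25, 0.0075), also rose. IRF1, an interferon-induced transcription factor, did not pass (log2 -0.12, limma adjusted p = 0.073), with 5.33 FPKM with mimic and 5.86 FPKM with scramble. IDO1, a tryptophan-degrading enzyme and typical interferon-gamma target, reached 0.0320 FPKM at most. The list holds receptor and signalling genes, such as JAK1 and IFNGR2, beside induced genes. Among genes named after their values were seen, PSMB8 (log2 0.0019), PSMB9 (0.0059), GBP1 (0.09) and SOCS1 (-0.24) did not pass. CXCL9 was listed at 0 in all libraries. The number of calls was 5, all higher, without mimic replicate 3.

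The 13 cytosolic synthetases known as ATF4-linked in mammalian cells had 7 members lower (AARS1, YARS1, MARS1, IARS1, LARS1, GARS1 and CARS1) and 1 higher (VARS1). The 5 that did not pass were EPRS1, NARS1, SARS1, TARS1 and WARS1, so WARS1 counts here as well as on the interferon side. The called share was 61.5%, against 35.5% of all tested genes, of which 16.8% were called lower. This list was chosen with earlier results of these data known. Their median log2 difference was -0.17. NARS1, for asparagine, had a log2 difference of -0.12 (limma adjusted p = 0.068). It passed without scramble replicate 3 (0.049). SARS1, for serine, lay between 59.1 and 61.2 FPKM with mimic and between 58.6 and 59.8 FPKM with scramble, which overlapped (log2 0.02, limma adjusted p = 0.623). Log2 differences within this list ran from -0.64 to 0.20.

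In the wider amino acid response list, which holds other ATF4-linked genes, 17 of 28 tested genes fell, 3 rose and 8 did not pass. The median log2 difference was -0.27, and 16.8% of all tested genes fell. ATF4 itself had 98.4, 92.5 and 93.8 FPKM with mimic, against 127.4, 127.3 and 133.9 FPKM with scramble (log2 -0.44, SE 0.041, limma adjusted p = 0.00021). MTHFD2, of mitochondrial folate metabolism, had 19.4, 20.4 and 19.0 FPKM with mimic, against 39.0, 39.5 and 36.6 FPKM with scramble (log2 -0.93, limma adjusted p = 1.7e-05). ATF5, a related transcription factor (log2 -0.67, limma adjusted p = 3.5e-05), and the serine synthesis enzymes PHGDH (-0.56, 7.8e-05) and PSAT1 (-0.58, 0.00015) fell too. The 3 that rose were SESN2, a leucine sensor (log2 0.34), SLC38A2, an amino acid transporter (0.29), and CEBPG (0.13), a C/EBP factor that pairs with ATF4; these were named after their values were seen. CEBPG lost its call whichever library was left out (highest adjusted p 0.112 over all alternatives). With 1 library left out, 12 to 16 genes fell. The list was chosen with its fall in these libraries already known, so it is no independent support.

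**Figure D3:**
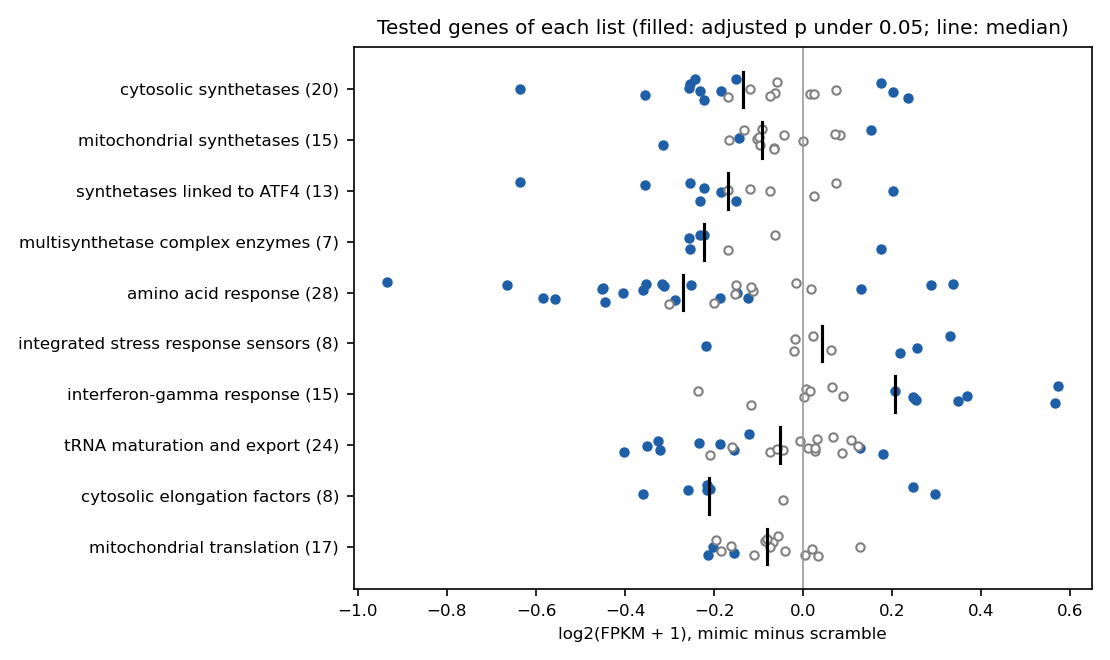
Log2 difference, mimic minus scramble, of every tested gene in 10 lists; the number in brackets is the genes tested, filled points passed the test and the line is the median. Medians run from -0.27 in the amino acid response to 0.21 in the interferon-gamma response.

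Genes of the stress sensors, listed here with others such as subunits of the phosphatase that ends the response, differed among themselves. EIF2AK4, which encodes GCN2, the sensor of uncharged tRNA, had 6.37 ± 0.0867 FPKM with mimic and 6.26 ± 0.298 FPKM with scramble (SD, n = 3 each; log2 0.02, limma adjusted p = 0.755). Of 8 genes in this list 3 rose, namely EIF2AK2, the double-stranded RNA kinase PKR (log2 0.33, limma adjusted p = 0.022), EIF2AK3, the kinase PERK (0.22, 0.030), and PPP1R15B, a subunit of the phosphatase that ends the response (0.26, 0.020). PPP1R15A, the stress-induced phosphatase subunit, fell (-0.22, 0.018). The called share of the list was 50%, against 35.5% of all tested genes. Of the 8, limma called 0 without mimic replicate 2 or mimic replicate 3 (4 at an unadjusted p under 0.05 in each), and 2 were called without scramble replicate 1.

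Among synthetases with a promoter window, the 8 with the ATF4 element comprised 6 that fell (AARS1, CARS1, GARS1, IARS1, MARS1 and YARS2) and 2 that did not pass (NARS1 and TARS1). Their median log2 difference was -0.17. Of the 21 tested synthetases without it, 3 fell and 2 rose, with a median of -0.06. Over all tested genes with a window, 22.5% of 236 with the element and 17.3% of 8939 without it were called lower. Called higher were 15.3% with the element and 20.8% without it. Medians were 0.0084 with the element and 0.010 without it. Of 66 tested genes with the stricter form TGATGCAA, 14 were called higher and 15 lower, with a median of 0.023.

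The remaining mitochondrial enzymes showed small differences. YARS2, for tyrosine, fell to 38.0 ± 1.30 FPKM with mimic, against 42.0 ± 1.63 FPKM with scramble (SD, n = 3 each; log2 -0.14, limma adjusted p = 0.038). Its call was lost when mimic replicate 2, mimic replicate 3, scramble replicate 1 or scramble replicate 3 was left out (limma adjusted p = 0.102, 0.115, 0.119 and 0.095). RARS2, for arginine, had a log2 difference of -0.17 (limma adjusted p = 0.063) and passed without scramble replicate 2 (0.015); its head-to-head neighbour ORC3 lay at -0.02. PARS2, LARS2, VARS2, MARS2, FARS2, TARS2, NARS2, AARS2, EARS2, WARS2 and IARS2 did not pass, with log2 differences between -0.13 and 0.08. Exons of GTF2H4 on the same strand cover part of the VARS2 exon length.

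SARS2, the mitochondrial serine enzyme, was the 1 synthetase below the filter. It had 0.201, 0.0744 and 0.168 FPKM with mimic, against 0.202, 0.111 and 0.133 FPKM with scramble. These overlapping values rest on 13 to 41 recovered reads per library. Other annotated genes cover 57.0% of its exon length, 46.2% on the same strand. The main one of these, ENSG00000269547, reached 0.0607 FPKM at most. MRPS12, a mitochondrial ribosomal protein gene whose annotated 5′ end overlaps that of SARS2, had 35.4 FPKM with mimic and 39.2 FPKM with scramble. MRPS12 was called lower (log2 -0.14, limma adjusted p = 0.026). EEF1G, a subunit of an elongation factor that every cell uses, was listed at 0 in all 6 libraries, so a low or 0 value in this table need not mean a silent gene.

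Set side by side for the same amino acid, 17 pairings had both genes tested. In 2 of them, CARS1 with CARS2 and YARS1 with YARS2, both genes fell. In 8 the cytosolic gene was called and the mitochondrial one did not pass. The difference between the genes of a pairing was not tested, and EPRS1, FARS2 and TARS2 recur among the pairings. The alanine pair lay at -0.64 for AARS1 and -0.04 for AARS2. The isoleucine pair lay at -0.23 for IARS1 and 0.08 for IARS2, and the arginine pair at 0.18 for RARS1 and -0.17 for RARS2. By catalytic class, a grouping made after the values were seen, 7 of 18 class I genes fell and 2 rose. Of 16 tested class II genes 4 fell and 2 rose. The called shares were 50% and 37.5%, against 35.5% of all tested genes, and the difference between the classes was not tested. EPRS1, which holds both classes, did not pass.

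**Figure D4:**
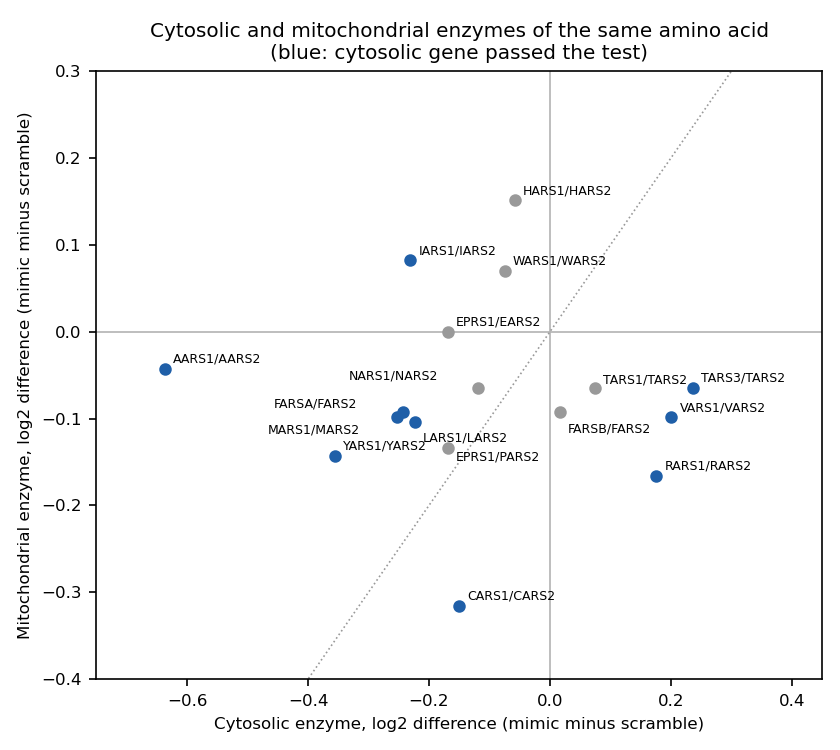
Log2 difference, mimic minus scramble, of the cytosolic gene (horizontal axis) against that of the mitochondrial gene (vertical axis) for 17 pairings by amino acid; the dotted line marks equal differences and blue points a cytosolic gene that passed the test. AARS1 with AARS2 lies far to the left and CARS1 with CARS2 lowest.

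Steps before and after charging were read from further lists. Of 24 genes of tRNA maturation and export 8 fell and 2 rose, with a median log2 difference of -0.05. The called share was 41.7%, against 35.5% of all tested genes. TRNT1, which adds the CCA end to tRNAs, had 3.15 ± 0.148 FPKM with mimic and 4.48 ± 0.268 FPKM with scramble (SD, n = 3 each; log2 -0.40, limma adjusted p = 0.0015). The tRNA methylation genes WDR4 (log2 -0.32, limma adjusted p = 0.0014), NSUN2 (-0.35, 0.0021) and TRMT61A (-0.33, 0.0046) fell as well. Other methylation genes of the list, named after their values were seen, were not called lower. METTL1, the partner of WDR4 (-0.07, 0.200), TRMT6, the partner of TRMT61A (-0.16, 0.0998), and FTSJ1 (-0.06, 0.277) did not pass. TRMT1 rose (0.13, 0.038), a call lost in 6 of 18 alternatives, among them those leaving out mimic replicate 1, mimic replicate 3, scramble replicate 1 and scramble replicate 2 (highest adjusted p 0.118). XPOT, the tRNA export receptor and a known ATF4 target, fell by a small amount (-0.19, 0.045), with overlapping libraries, and missed the threshold in 9 of 18 alternatives (highest adjusted p 0.133), among them those leaving out mimic replicate 1, mimic replicate 3, scramble replicate 1 and scramble replicate 2. The number of calls in this list was 6 without mimic replicate 1 and 5 without mimic replicate 3, scramble replicate 1 or scramble replicate 2, none of them higher. The editing factors DTD1 and DTD2 did not pass (log2 -0.04 and 0.04), and AARSD1 was below the filter.

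Of 8 tested cytosolic elongation genes 5 fell and 2 rose, with a median of -0.21. Thus 87.5% were called, against 35.5% of all tested genes. EEF2, the translocase, had 783.5 ± 17.9 FPKM with mimic and 905.6 ± 7.89 FPKM with scramble (SD, n = 3 each; log2 -0.21, limma adjusted p = 0.0067), a call lost with no filter and after quantile normalization (0.478). Its kinase EEF2K (log2 -0.36, limma adjusted p = 0.0058) and EEF1D (-0.26, 0.0064), a partner of VARS1, also fell, and EEF1A2 rose (0.30, 0.0037). Of 17 genes of mitochondrial translation, with 17.6% called against 35.5% of all tested genes, 3 fell, 0 rose and 14 did not pass. GATC, of the complex that makes mitochondrial glutaminyl-tRNA (log2 -0.20, limma adjusted p = 0.0079), TRMU, a tRNA thiolation enzyme (-0.21, 0.0083), and TUFM, the mitochondrial elongation factor (-0.16, 0.030), were these. The TUFM call held without scramble replicate 2 and was lost when any other library was left out (highest adjusted p 0.096 over all alternatives). MTRF1, a release factor family member, had a log2 difference of -0.16 (0.053).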

How the data were processed

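The submitters' processing notes name build GRCh38 and, without roles, DESeq2 1.26.0, featureCounts 2.0.1, HISAT2 2.1.0 and Trimmomatic 0.39. Which annotation, strand setting and FPKM formula served is not given in the sources used here. FPKM were deposited by the authors for 58051 genes in 6 libraries, with 0 columns of other samples. Their deposited table of 401 genes holds, per the file headers, mean normalized counts (a signal), log2 fold changes with errors, a score and p-values; it was used only to look up the members.

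Names, positions and exon lengths came from GENCODE 29 (GRCh38). FPKM times exon length gave whole reads for 95.3% to 95.6% of low values (tolerance 0.02 reads). Values as log2(FPKM + 1) were fitted by group alone in limma 3.58.1 under R 4.3.3, using its variance trend, with a filter of 0.5 FPKM on the mean and Benjamini-Hochberg adjustment over all 12912 tested genes; it was tested on simulated data. Members, lists and tests were chosen with earlier results of these data known. Named genes are all 36 members, up to 4 genes per other list with the smallest p, 10 further genes picked by name, and some genes that overlap or start beside a member; others are marked. A gene among those picked by name is not reported here. Alternatives covered pseudocount, filter, scaling, variance model, replicate block, voom and each library left out.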

Additional observations from a re-analysis of the deposited data

How the results depend on the processing

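Over 18 alternatives, no called synthetase changed sign. Of the 15 called, 9 (AARS1, YARS1, CARS2, KARS1, MARS1, FARSA, IARS1, GARS1 and VARS1) passed in each alternative that tested them. The other 6 lost the call in at least 1; besides single libraries left out, these were CARS1 and LARS1 on the TPM scale (limma adjusted p = 0.055 and 0.058), LARS1, TARS3 and YARS2 with no filter (0.070, 0.131 and 0.085) and YARS2 without the variance trend (0.065). Leaving out 1 library gave 10 to 14 called synthetases against 15, 8 to 12 cytosolic against 12 and 1 to 3 mitochondrial against 3; fewer samples enter these fits. The other settings gave 12 to 17. EPRS1, NARS1 and RARS2 gained a call in 2, 3 and 2 alternatives. Signs turned for 2 uncalled genes near 0: EARS2 (0.021 on the TPM scale, 0.041 without mimic replicate 1, 0.018 without scramble replicate 1, 0.0027 without scramble replicate 2) and AARS2 (0.0021 without scramble replicate 1). With 1 library left out, EARS2 ranged from -0.041 to 0.041 and AARS2 from -0.087 to 0.0021. WARS1 stayed short of the threshold, between -0.08 and -0.06.

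Same-numbered libraries did not deviate together in every pair (correlations -0.21, 0.47 and 0.06 over 8298 genes). Mimic replicate 1 with scramble replicate 3 had 0.45. Deviations from a mean of 3 libraries are tied together, so this check cannot decide whether the numbers pair the samples. With the replicate block 17 synthetases were called against 15. Among the other lists, elongation factors had 3 calls with no filter against 7, the stress sensors 0 against 4, and mitochondrial translation 5 after quantile normalization against 3. TPM scaling moved the median of all genes to 0.024. SARS2, at 13 to 41 reads per library, is too shallow for a statement.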
